A study of Mus musculus with 6 samples.

Results

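Genes of amino acid and peptide transporters were compared between NHE3-/- mice and wild-type littermates in colon RNA. NHE3 is a sodium-hydrogen exchanger of the luminal membrane and is encoded by Slc9a3. The members were taken by name: every gene on the array whose symbol begins with Slc1a, Slc3a, Slc6a, Slc7a, Slc15a, Slc36a, Slc38a or Slc43a followed by a number. This gave 68 genes in 8 families, read by 133 probe sets, out of 18194 genes read by 34958 probe sets that name a single gene. Of the 68, 3 are opposite-strand genes named after a transporter (Slc6a19os, Slc7a6os and Slc36a1os). Where a gene had several probe sets, the one with the highest signal averaged over the 6 arrays stands for it.

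The groups were 3 arrays of NHE3+/+ colon and 3 arrays of NHE3-/- colon, each from mice 6 to 8 weeks old, with no treatment. The labels call the tissue whole colon and do not say which part of Slc9a3 is disrupted, how many animals an array stands for, or that each array came from a separate animal. P-values therefore measure the spread between these arrays, which may be technical. In whole tissue, fewer cells of a type and less RNA per cell cannot be told apart.

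Epithelial cells of the gut move amino acids and short peptides in 2 steps, through carriers in the luminal (apical) membrane and through others in the blood-facing (basolateral) membrane. Some apical carriers run on the sodium gradient, while the peptide carrier PEPT1 and the amino acid carrier PAT1 run on protons, which sodium-hydrogen exchange across the same membrane helps to supply. Several carriers work as pairs of a light chain that transports and a heavy chain that brings it to the membrane. Most of this uptake is known from the small intestine and the kidney, and the colon is known for little of it in adult life.

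The arrays were checked before the members were compared. Both Slc9a3 probe sets gave signal in both genotypes and neither passed the test (the brighter had 5908, 5647 and 6669 on NHE3+/+ arrays and 5970, 4266 and 3665 on NHE3-/- arrays; limma adjusted p = 0.12), so it does not check the labels. Xist, the RNA of the inactive X chromosome, had signals of 2639 and 1929 on NHE3-/- arrays 1 and 2, and of at most 12.3 on the other 4 arrays. The Y-linked gene Eif2s3y had 932.6 and 1088 on NHE3-/- arrays 1 and 2 and 1355 to 1809 on the other 4, and Kdm5d had 341.3 and 405.5 on those arrays and 654.2 to 783.6 on the other 4. Xist and Y-linked signal thus occurred together on NHE3-/- arrays 1 and 2 and on no NHE3+/+ array. Sex-linked signal therefore goes partly with genotype, and their effects cannot be fully told apart. The NHE3-/- arrays thus differ among themselves, and counts are given below with array 3 of that group alone as well. Colonocyte markers were bright (summed signal of 6 genes from 107973 to 135243 in NHE3+/+). Smooth muscle markers were dim for a tissue labelled whole colon: the summed signal of 6 genes was 1488 to 1747 in NHE3+/+ and 1130 to 2420 in NHE3-/-, and Cnn1 did not pass the filter on low values. Scaling matters for the balance of directions. Signals as deposited gave 1342 higher probe sets and 1685 lower ones (44.3% of calls higher). Setting the log2 medians of the arrays equal gave 1597 and 839 (65.6%). The median log2 difference over everything tested was -0.10 as deposited and -0.005 with equal log2 medians, so differences on the deposited scale sit about 0.10 below those on the other.

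Of the 68 genes, 41 passed the filter on low values and were tested, and 27 did not. In NHE3-/- colon, 7 of the 41 rose and 4 fell (limma, adjusted p under 0.05). The shares were 17.1% higher and 9.76% lower. Over all tested probe sets 4.97% were higher and 6.24% lower, and over all genes taken by 1 probe set each, 6.42% were higher and 7.55% lower. The share that fell was thus near that of all genes, and the share that rose was above it; neither comparison was tested. The median log2 difference over the 41 was -0.03, against -0.07 over all genes taken the same way. All 3 NHE3-/- arrays lay above all 3 NHE3+/+ arrays for 13 of the 41 (31.7%; 12.2% of all tested probe sets) and below them for 8 (19.5%; 20.1% of all).

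The genes that rose were Slc7a9, Slc6a19, Slc36a1, Slc6a4, Slc6a8, Slc15a1 and Slc15a2. Those that fell were Slc36a4, Slc7a1, Slc1a4 and Slc7a6. With NHE3-/- array 3 alone against NHE3+/+, a fit in which that array is assumed to vary like the others, 8 of these 11 were still called. The exceptions were Slc15a2 (log2 difference 0.80, limma adjusted p = 0.137), Slc36a4 (-0.95, adjusted p = 0.0626) and Slc7a6 (-1.09, adjusted p = 0.0564).

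**Figure D1:**
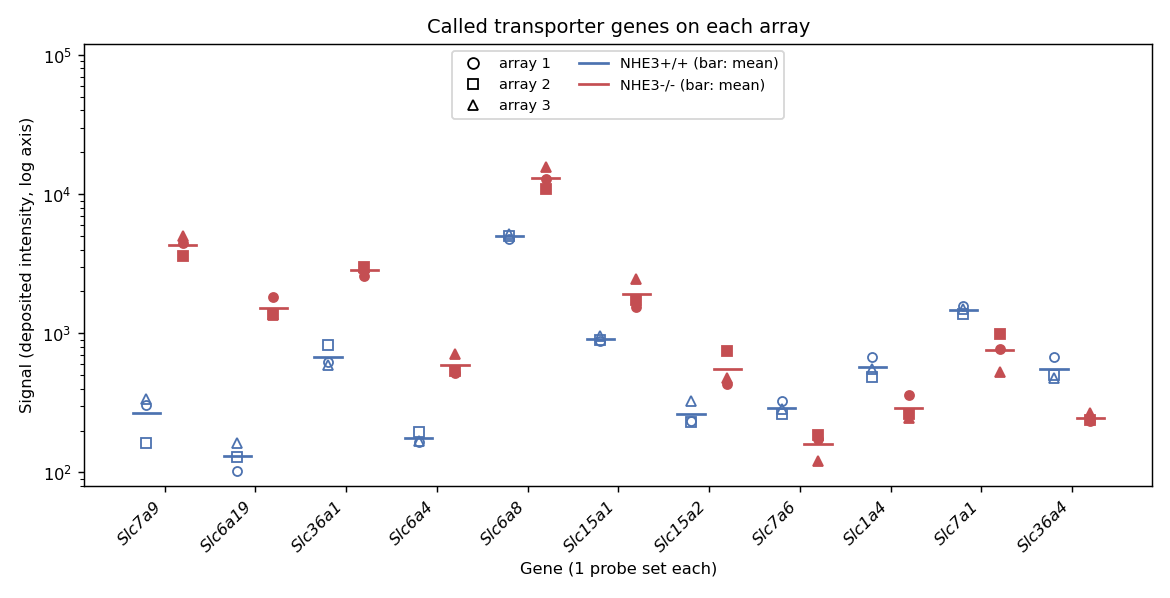
Signal of the 11 called genes on each array (log axis, deposited intensity, 1 probe set per gene). Open blue symbols are the 3 NHE3+/+ arrays, filled red symbols the 3 NHE3-/- arrays, the symbol shape gives the array number within its group, and short bars are group means. Genes run from the largest rise at the left (Slc7a9) to the largest fall at the right (Slc36a4), and the arrays of the 2 groups do not overlap for any of the 11.

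Promoter sequences from RefSeq (GRCm38.p6) are shown for 3 called genes because they differ in direction: Slc36a1 and Slc15a1, which rose, and Slc36a4, a second Slc36a gene, which fell. Each is the stretch of up to 250 bases before the listed start site that lies outside the gene's RefSeq span, 5′ to 3′ on the gene's strand. Capitals mark a match to the HNF1 motif described next. Slc36a1 is at chr11:55204090-55204321 (plus strand), Slc15a1 at chr14:121505255-121505504 (minus strand) and Slc36a4 at chr9:15709488-15709737 (plus strand).
Slc36a1: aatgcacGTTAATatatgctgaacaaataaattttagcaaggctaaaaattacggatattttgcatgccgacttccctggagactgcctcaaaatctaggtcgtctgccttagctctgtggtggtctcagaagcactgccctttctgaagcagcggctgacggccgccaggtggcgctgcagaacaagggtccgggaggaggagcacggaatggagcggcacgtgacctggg
Slc15a1: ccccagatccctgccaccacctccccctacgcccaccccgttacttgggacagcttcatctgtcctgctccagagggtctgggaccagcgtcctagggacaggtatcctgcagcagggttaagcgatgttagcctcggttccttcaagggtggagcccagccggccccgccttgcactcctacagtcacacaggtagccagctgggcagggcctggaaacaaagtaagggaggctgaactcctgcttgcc
Slc36a4: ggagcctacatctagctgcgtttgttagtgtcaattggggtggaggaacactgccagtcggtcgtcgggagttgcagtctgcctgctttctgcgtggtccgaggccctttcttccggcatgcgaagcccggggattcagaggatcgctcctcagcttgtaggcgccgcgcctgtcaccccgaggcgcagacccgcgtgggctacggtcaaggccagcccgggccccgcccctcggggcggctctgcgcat

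Motifs of intestinal and stress-responsive factors were sought on both strands in the 250 bases before the start site. A window was listed for 10 of the 11 called genes, 6 that rose and 4 that fell. The HNF1 motif GTTAAT was found in 1 of the 6 (Slc36a1, 243 bases before the start site) and in 6.43% of all 32851 windows. The GATA motif AGATAA was found in 2 of the 6 (Slc7a9 at 205 and 166 bases, Slc15a2 at 95 bases before the start site) and in 9.99% of all windows. These GATA matches lie inside the RefSeq span of their own gene, and the further Slc7a9 window held none. The first listed windows of 3 of the 10 genes (Slc7a9, Slc6a19 and Slc7a6) lie wholly inside that span. The CDX motif TTTATG (10.8% of all windows), the HNF4 motif AAAGTCCA (1.01%) and the ATF4 element TGATGNAA (3.45%) were in none of the 10. None of the 5 motifs was in a window of a gene that fell. These are matches of letters only and describe these windows. The GC content of the whole 250-base window was 53.2% for Slc36a1, 62% for Slc15a1 and 66% for Slc36a4, against a median of 52.4% over all windows.

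Several apical carriers of amino acids and peptides rose. Of the 11 genes listed as apical in epithelia, 10 were tested: 4 rose (40%; Slc7a9, Slc6a19, Slc36a1 and Slc15a1) and none fell. The median log2 difference of the 10 was 0.73. Of the 9 listed as basolateral, all were tested: none rose, 2 fell (22.2%; Slc7a1 and Slc7a6), and the median was -0.12. Over all genes taken by 1 probe set each, 6.42% were higher and 7.55% lower. All NHE3-/- arrays lay above all NHE3+/+ arrays for 6 apical genes (60%) and 3 basolateral ones (33.3%), against 12.2% of all tested probe sets. They lay below for 1 apical gene (10%) and 2 basolateral ones (22.2%), against 20.1%. Among the 22 tested genes with no side assigned, 3 rose (13.6%) and 2 fell (9.09%), with a median of -0.13. The difference between the sides was not tested, and the side lists were chosen with earlier results of these data known. The 4 apical genes were called under each of the 18 alternative settings that gave them a test, while the basolateral count was 1, without Slc7a6, in each of the 6 fits that left out 1 array.

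Slc7a9 encodes the light chain b0,+AT, which takes up cystine and basic amino acids in exchange for neutral ones and is mutated in cystinuria. Its signal was 303.4, 162.4 and 338.5 on NHE3+/+ arrays and 4466, 3571 and 4977 on NHE3-/- arrays. Every NHE3-/- array was far above every NHE3+/+ array. The mean rose 16.2-fold, from 268 ± 93.2 to 4338 ± 712 (SD, n = 3 each), a log2 difference of 3.91 (SE 0.22; limma adjusted p = 5.48e-06). Here and below, log2 differences are on the log2(signal + 31.4) scale, which understates the change of dim genes.

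Slc3a1 encodes rBAT, the heavy chain that carries b0,+AT to the apical membrane. Its signal was 2257, 1917 and 2448 on NHE3+/+ arrays and 4560, 2385 and 3234 on NHE3-/- arrays. NHE3-/- array 2 lay within the NHE3+/+ range, so the groups overlapped. The log2 difference of 0.57 (SE 0.20) did not pass (limma adjusted p = 0.0889). It was 0.80 (adjusted p = 0.0188) without NHE3-/- array 2. The light chain thus rose while its heavy chain, already above the median of each array in NHE3+/+ colon, did not pass the test.

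Slc6a19 encodes B0AT1, the sodium-driven carrier of neutral amino acids that is mutated in Hartnup disorder. Its signal was 101.6, 129.3 and 162.9 on NHE3+/+ arrays and 1812, 1371 and 1360 on NHE3-/- arrays. The groups were well apart, and the mean rose 11.5-fold, from 131 ± 30.7 to 1514 ± 258 (SD, n = 3 each). The log2 difference was 3.25 (SE 0.19; limma adjusted p = 5.48e-06). The other Slc6a19 probe set moved alike, with a log2 difference of 3.00 (SE 0.22; adjusted p = 2.49e-05).

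Slc6a18, which encodes the related carrier B0AT3 of the kidney brush border, lies next to Slc6a19 on chromosome 13 with no protein-coding gene between them. Its signal was 47.2, 64.5 and 12.4 on NHE3+/+ arrays and 94.3, 100 and 96.3 on NHE3-/- arrays. The NHE3-/- arrays were all above the NHE3+/+ arrays, but at signals near the array median. The log2 difference of 0.89 (SE 0.36) did not pass (limma adjusted p = 0.138). Slc6a19os, the opposite-strand gene at that locus, did not pass the filter.

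Slc36a1 encodes PAT1, a proton-driven carrier of small neutral amino acids such as glycine, proline and alanine, found in the brush border and in lysosomes. Its signal was 621.7, 822.9 and 596.1 on NHE3+/+ arrays and 2583, 2972 and 2962 on NHE3-/- arrays. The NHE3-/- arrays were close together and all above the others. The mean rose 4.17-fold, from 680 ± 124 to 2839 ± 222 (SD, n = 3 each), a log2 difference of 2.02 (SE 0.14; limma adjusted p = 1.66e-05). Its neighbours on chromosome 11, Slc36a2 and Slc36a3, lie in a row with it without another protein-coding gene between them. Their log2 differences were -0.23 (SE 0.34) and -0.12 (SE 0.40), and neither passed.

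Slc15a1 encodes PEPT1, the proton-driven carrier of dipeptides and tripeptides. Its signal was 885.3, 891.4 and 953.7 on NHE3+/+ arrays and 1536, 1728 and 2460 on NHE3-/- arrays. The NHE3-/- arrays were all higher, array 3 the most. The mean rose 2.10-fold, from 910 ± 37.9 to 1908 ± 488 (SD, n = 3 each), a log2 difference of 1.01 (SE 0.16; limma adjusted p = 0.00333).

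The remaining apical genes did not pass the test. Slc6a14 encodes ATB0,+, a broad sodium- and chloride-driven carrier known from the colon. It was bright in both groups, with signals of 13085, 12863 and 10110 on NHE3+/+ arrays and 16132, 15731 and 13456 on NHE3-/- arrays, groups that lay apart by a small margin. Its log2 difference was 0.33 (SE 0.12; limma adjusted p = 0.106). The other Slc6a14 probe set, also bright, had 0.13 (SE 0.10; adjusted p = 0.424), and there the groups overlapped. Slc1a1, the acidic amino acid carrier EAAT3, had 0.14 (SE 0.18), and its other probe sets had -0.28 and 0.69, so they disagreed in sign. Slc1a5, the neutral exchanger ASCT2, had -0.15 (SE 0.16), and its other probe set -0.68 (SE 0.23). Slc6a20a, a carrier of proline, had -0.71 (SE 0.28; adjusted p = 0.122), with all 3 NHE3-/- arrays below all 3 NHE3+/+ arrays, and its neighbour Slc6a20b did not pass the filter.

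**Figure D2:**
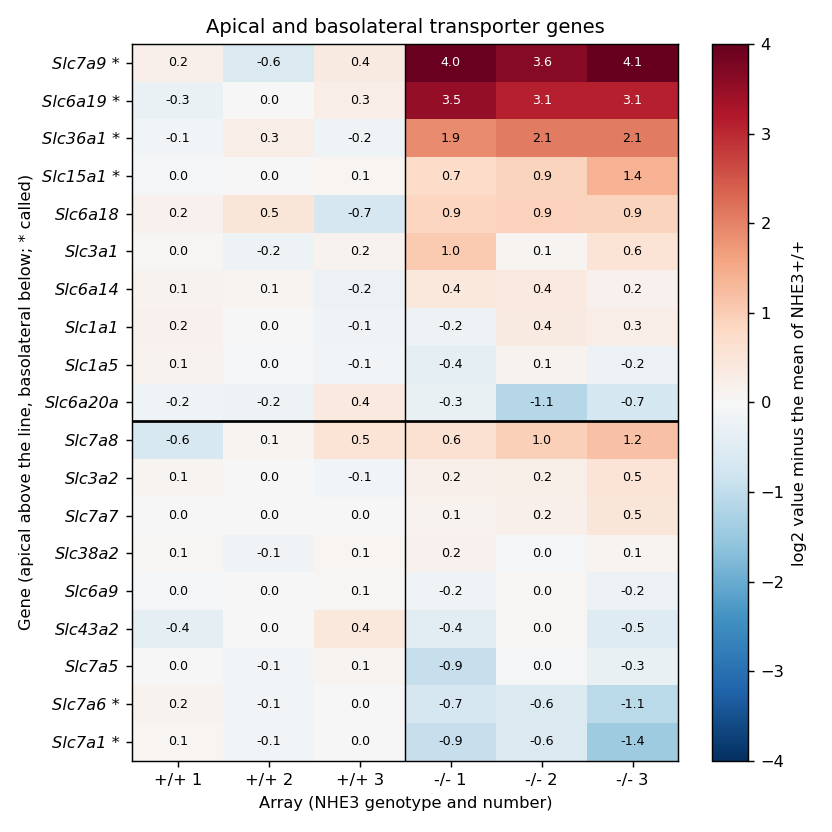
Log2 value of each tested apical gene (above the line) and basolateral gene (below it) on each array, minus the mean of the 3 NHE3+/+ arrays for that gene. Red is higher and blue lower, each cell prints its value, and stars mark called genes. The 4 starred apical genes are red on all 3 NHE3-/- arrays, and the 2 starred basolateral genes are blue on all 3.

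Some markers of other epithelia and of position along the gut rose as well, and their part in the result was not tested. Of 11 tested small-intestinal markers 3 rose (27.3%; Apoa1 by 1.99, Rbp2 by 1.75 and Sult1b1 by 0.91, log2 differences) and none fell. Over all genes taken by 1 probe set each, 6.42% were higher and 7.55% lower. The other 8 markers did not pass, among them the brightest, Fabp2 (-0.30, SE 0.13; limma adjusted p = 0.161). The summed signal of the 11 was 33572 to 41961 in NHE3+/+ and 41792 to 47473 in NHE3-/-, ranges that overlap. The small-intestinal factor gene Gata4 was dim (21.5 to 82.9 in NHE3+/+, 58.7 to 121.8 in NHE3-/-), and Lct, lactase of the small intestine, had 41.9 to 314.9 in NHE3+/+ and 73.9 to 89.3 in NHE3-/-. Of 6 colonocyte markers 4 rose (66.7%; Slc51b, Aqp8, Car4 and Slc26a3) and none fell, with summed signals up to 206310 in NHE3-/-. Of 4 tested posterior Hox genes, which mark the hind end of the gut, 3 rose (75%; Hoxa13, Hoxb13 and Hoxd13) and none fell. Hoxd11 had -0.30 (SE 0.35) and did not pass. The summed signal of the 5 measured was 4118 to 5538 in NHE3+/+ and 10208 to 14858 in NHE3-/-.

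Of the basolateral carriers, 2 fell and the others did not pass. Slc7a1 encodes CAT1, a carrier of arginine, lysine and ornithine. Its signal was 1575, 1373 and 1484 on NHE3+/+ arrays and 767.6, 986.5 and 525.6 on NHE3-/- arrays. All 3 NHE3-/- arrays were lower, array 3 the lowest. The mean fell from 1478 ± 101 to 760 ± 231 (SD, n = 3 each; 1.94-fold lower), a log2 difference of -0.97 (SE 0.19; limma adjusted p = 0.0097). The second Slc7a1 probe set fell too, by 0.91 on the log2 scale (adjusted p = 0.0181), and the third had -0.44 and did not pass. Without the mean-variance trend the adjusted p of the brightest probe set was 0.0641.

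Slc7a6 encodes y+LAT2, a light chain that exports basic amino acids in exchange for neutral ones. Its signal was 327.3, 265 and 285.2 on NHE3+/+ arrays and 172.9, 186.5 and 120.1 on NHE3-/- arrays. The groups lay apart, with a log2 difference of -0.77 (SE 0.22; limma adjusted p = 0.0426), and the other probe set had -0.93 (adjusted p = 0.0411). The call was near the threshold: the adjusted p ran from 0.0329 to 0.128 over the alternatives, and the gene was not called when any 1 of the 6 arrays was left out. Slc7a6os, its opposite-strand neighbour, had -0.48 (SE 0.21) and did not pass.

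The other 7 basolateral genes were not called. Slc3a2, the heavy chain 4F2hc that partners Slc7a5, Slc7a6, Slc7a7 and Slc7a8, had signals of 1746, 1620 and 1517 on NHE3+/+ arrays and 1871, 1909 and 2381 on NHE3-/- arrays. These groups did not overlap, and the log2 difference was 0.32 (SE 0.13; limma adjusted p = 0.125). Among its light chains, Slc7a8 (LAT2) had 0.92 (SE 0.34; adjusted p = 0.108), Slc7a7 (y+LAT1, mutated in lysinuric protein intolerance) 0.27 (SE 0.15), and Slc7a5 (LAT1) -0.42 (SE 0.27). The partners of the one heavy chain thus had log2 differences of both signs, with Slc7a6 alone among them called. Slc38a2 (SNAT2) had 0.07 (SE 0.10), Slc6a9 (the glycine carrier GLYT1) -0.12 (SE 0.13) and Slc43a2 (LAT4) -0.30 (SE 0.26). Another tested Slc43a2 probe set had 0.31 (SE 0.34), so its probe sets disagreed in sign. Further Slc38a2 probe sets had -0.16 (SE 0.13) and 0.05 (SE 0.24).

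Carriers of substrates other than dietary amino acids were among the Slc6a genes that rose. Slc6a8 encodes the creatine transporter. Its signal was 4757, 4984 and 5191 on NHE3+/+ arrays and 12773, 10829 and 15773 on NHE3-/- arrays, with wide separation. The mean rose 2.64-fold, from 4977 ± 217 to 13125 ± 2491 (SD, n = 3 each), a log2 difference of 1.38 (SE 0.13; limma adjusted p = 0.000126), and the other probe set rose by 1.14 (adjusted p = 0.000321).

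Slc6a4 encodes SERT, which clears serotonin and is known from gut epithelium and serotonergic neurons. Its signal was 164.8, 195.1 and 168.9 on NHE3+/+ arrays and 518.5, 536.1 and 706.9 on NHE3-/- arrays. All NHE3-/- arrays were higher, and the mean rose 3.33-fold, from 176 ± 16.4 to 587 ± 104 (SD, n = 3 each). The log2 difference was 1.56 (SE 0.18; limma adjusted p = 0.000498).

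Slc15a2 encodes PEPT2, a high-affinity peptide carrier known from kidney and from glia. Its signal was 234.9, 231.1 and 325 on NHE3+/+ arrays and 430.2, 747.5 and 477.7 on NHE3-/- arrays. The groups did not overlap and NHE3-/- array 2 was the highest, with a log2 difference of 0.96 (SE 0.22; limma adjusted p = 0.0208). The other 2 probe sets did not move with it, at -0.11 (SE 0.18) and -0.02 (SE 0.27), so the call rests on 1 of 3 probe sets. It was lost without NHE3+/+ array 1 (0.89, adjusted p = 0.0539) or 2 (0.88, adjusted p = 0.0759) and without NHE3-/- array 2 (0.73, adjusted p = 0.0668). It was also lost with a term for Xist (0.83, adjusted p = 0.161) and without the mean-variance trend (adjusted p = 0.0712).

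Markers of neurons and glia are given beside Slc6a4 and Slc15a2. Of 5 tested, 1 rose (20%; Nos1, by 1.14) and none fell, against 6.42% higher and 7.55% lower of all genes. The summed signal of the 8 measured was 424 to 646 in NHE3+/+ and 528 to 1037 in NHE3-/-, ranges that overlap, and the glial markers S100b and Gfap did not pass the filter. The part of these cells in either result was not tested.

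Of the other Slc6a genes, Slc6a6, the taurine transporter, had signals of 3738, 3871 and 4114 on NHE3+/+ arrays and 4492, 3319 and 1367 on NHE3-/- arrays. NHE3-/- array 3 stood far below the rest and array 1 above them all. The log2 difference of -0.51 (SE 0.32) did not pass (limma adjusted p = 0.333). It was -0.02 without NHE3-/- array 3, and -1.49 (adjusted p = 0.0011) with that array alone. The second Slc6a6 probe set did fall, from 1354, 1655 and 1470 to 1124, 980.8 and 883.3, by 0.57 on the log2 scale (SE 0.13; adjusted p = 0.0214). Its other 2 tested probe sets had -0.36 (SE 0.22) and 0.99 (SE 0.40; adjusted p = 0.14), so the probe sets disagreed in sign. Slc6a7 (-0.06), Slc6a17 (0.16) and the noradrenaline transporter Slc6a2 (0.45) did not pass.

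**Figure D3:**
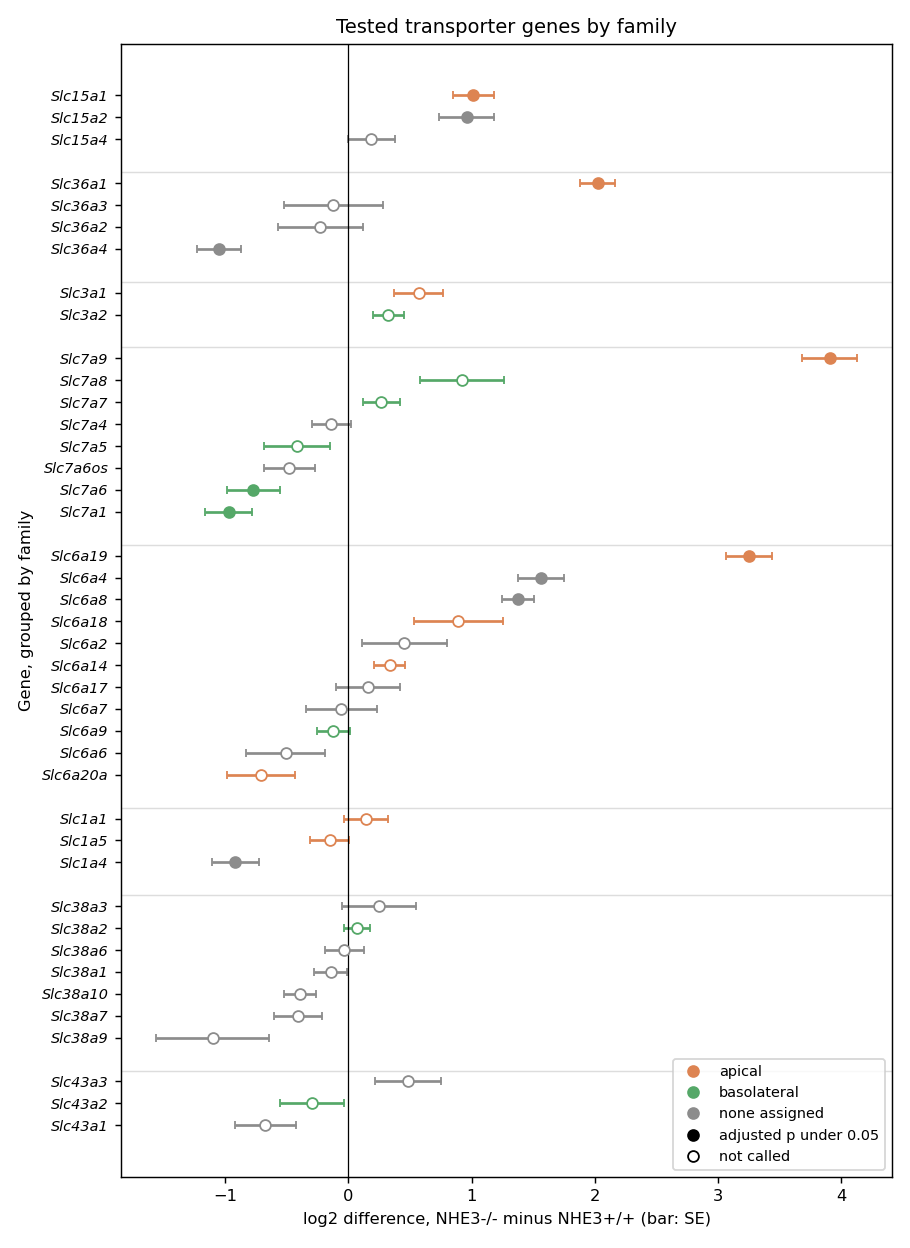
Log2 difference (NHE3-/- minus NHE3+/+; bars are SE) of the 41 tested genes, grouped by family from the peptide carriers at the top to Slc43a at the bottom. Orange marks apical, green basolateral and grey genes with no side assigned, and filled symbols are called. Filled symbols at the right are Slc15a1, Slc15a2, Slc36a1, Slc7a9, Slc6a19, Slc6a4 and Slc6a8, and no Slc3a, Slc38a or Slc43a gene is filled.

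By family, the peptide carriers Slc15a had 2 of 3 tested genes higher, Slc15a2 through only 1 of its 3 probe sets. The third gene, Slc15a4 of lysosomes, had 0.19 (SE 0.19). The shares of all genes, for the family counts here and below, were 6.42% higher and 7.55% lower. The Slc6a family had 3 of 11 higher and none lower, with a median log2 difference of 0.33. The Slc7a family had 1 of 8 higher and 2 lower, with a median of -0.28. In the Slc36a family, 1 of 4 rose and 1 fell. Slc36a4 encodes PAT4, a carrier of proline and tryptophan. Its signal was 674.1, 498.1 and 480.4 on NHE3+/+ arrays and 235.8, 238 and 266.9 on NHE3-/- arrays. All NHE3-/- arrays were lower and close together, with a mean 2.23-fold lower and a log2 difference of -1.05 (SE 0.18; limma adjusted p = 0.00458). A fit that also held a term for Xist gave -0.94 (adjusted p = 0.0568), which did not pass. Slc36a1 and Slc36a4, of the same family, thus moved in opposite directions.

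In the Slc1a family 1 of 3 tested genes fell and none rose, against 7.55% lower and 6.42% higher of all genes. Slc1a4 encodes ASCT1, an exchanger of serine, alanine and other small neutral amino acids. Its signal was 680.2, 483.9 and 555.1 on NHE3+/+ arrays and 357.2, 264.6 and 245.3 on NHE3-/- arrays. The groups did not overlap, and the mean was 1.98-fold lower. The log2 difference was -0.92 (SE 0.19; limma adjusted p = 0.0124). Its other 2 probe sets fell as well, by 1.05 and 0.95 on the log2 scale. Without the mean-variance trend the adjusted p was 0.0508.

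Markers of tissues beside the gut epithelium are given beside the genes that fell. Beside the counts in this paragraph, 6.42% of all genes were higher and 7.55% lower. The adipose markers Adipoq and Fabp4 both fell, and the summed signal of 3 adipose genes was 479 to 2417 in NHE3+/+ and 109 to 448 in NHE3-/-. Adipoq passed narrowly (limma adjusted p = 0.0484), and its NHE3+/+ signals ran from 90.3 to 526.3. Of 2 tested pancreas markers, the colipase gene Clps fell by 2.36 (SE 0.24) on the log2 scale. Cela1, the other, had -0.27 (SE 0.12; limma adjusted p = 0.178) and did not pass, and Cpa1 and Ctrb1 did not pass the filter. Of 7 macrophage, 5 T cell and 4 B cell markers tested, 1 passed the test as higher (Gzma) and none as lower. The B cell markers Ms4a1 and Cd79a had -1.42 (SE 0.47; limma adjusted p = 0.0784) and -1.13 (SE 0.34; adjusted p = 0.0562), with groups that overlapped. The plasma cell markers Jchain and Mzb1 had 0.60 (SE 0.18; adjusted p = 0.0574) and -0.18 (SE 0.23). The part of these tissues and cells in the falls of Slc36a4, Slc7a1, Slc1a4 and Slc7a6 was not tested.

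The Slc38a family, sodium-driven carriers of glutamine and other neutral amino acids, had 7 tested genes and no call through the representative probe sets. Log2 differences ran from -1.10 (Slc38a9, limma adjusted p = 0.146) to 0.25 (Slc38a3). Slc38a9 encodes a lysosomal arginine sensor of the mTORC1 pathway. Its signal was 204.6, 424 and 375.4 on NHE3+/+ arrays and 171.9, 39.8 and 273.6 on NHE3-/- arrays, and the groups overlapped. Another Slc38a9 probe set fell, with -1.31 (SE 0.34; adjusted p = 0.0326), and its 3 further tested probe sets had -0.20 to -0.47. Slc38a10 had -0.39 (SE 0.13; adjusted p = 0.0768). Its further tested probe sets had -0.32, -0.29, 0.23, 0.20 and 0.06, so they disagreed in sign. Slc38a7 had -0.41, Slc38a1 -0.14 and Slc38a6 -0.03. Slc38a1, Slc38a2 and Slc38a4 lie in a row on chromosome 15, and none of them was called, Slc38a4 being below the filter.

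Among Slc43a genes, of which Slc43a1 and Slc43a2 encode carriers of branched-chain amino acids and related substrates, none of 3 was called. Slc43a1 (LAT3) had signals of 145.2, 160.7 and 136.1 on NHE3+/+ arrays and 90.7, 71.2 and 80.1 on NHE3-/- arrays. The groups did not overlap, and the log2 difference was -0.67 (SE 0.25; limma adjusted p = 0.107). Without the mean-variance trend its adjusted p was 0.048. Slc43a3 had 0.48 (SE 0.26). Slc7a4, an orphan of the Slc7a family, had -0.14 (SE 0.16).

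**Figure D4:**
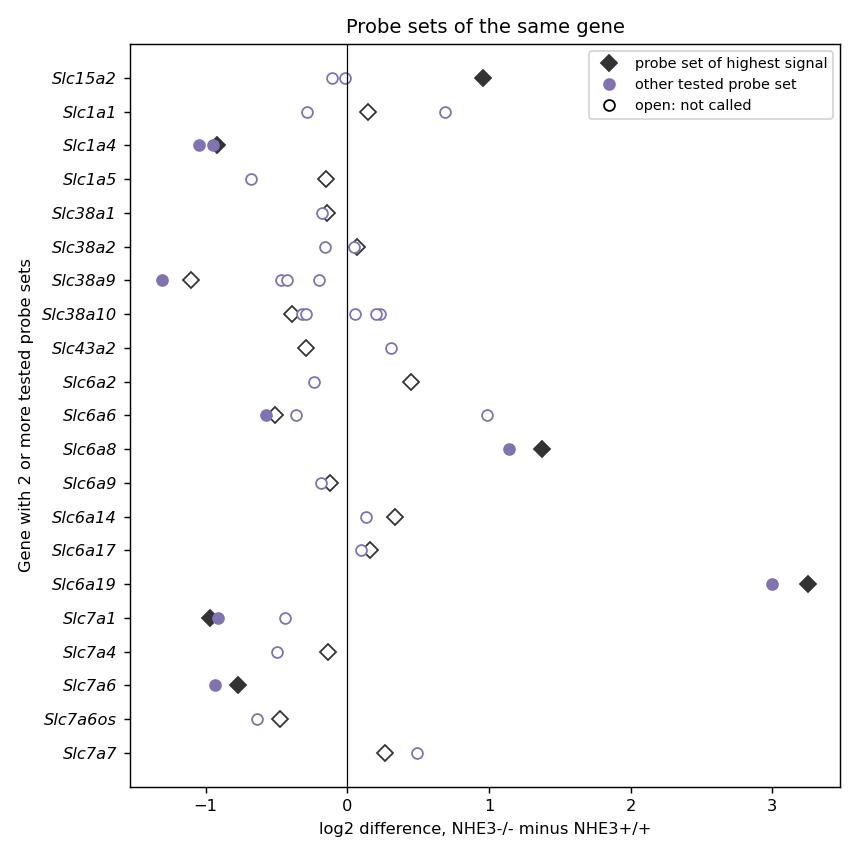
Log2 difference (NHE3-/- minus NHE3+/+) of each tested probe set for the 21 genes with 2 or more of them. Diamonds are the probe sets of highest signal, circles the others, and filled symbols are called. Slc6a19, Slc6a8, Slc1a4 and Slc7a6 have all their tested probe sets filled on 1 side, while the circles of Slc15a2 lie near 0, away from its diamond.

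The 27 genes below the filter had signals between 1.5 and 115.2 on the 6 arrays. They included carriers of glutamate in nervous tissue (Slc1a2, Slc1a3, Slc1a6 and Slc1a7), carriers of dopamine, glycine, GABA and betaine (Slc6a3, Slc6a5, Slc6a11, Slc6a12 and Slc6a13), and Slc6a15, Slc6a16 and Slc6a21. The cystine-glutamate exchanger Slc7a11, the cationic carriers Slc7a2 and Slc7a3, and Slc7a10, Slc7a12, Slc7a13, Slc7a14 and Slc7a15 were below it too. The others were Slc15a3, Slc15a5, Slc38a4, Slc38a5, Slc6a20b, Slc6a19os and Slc36a1os. Their change between the genotypes was not tested.

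Genes that act with the transporters were read from lists of non-members. Of 10 brush border peptidases, which cut peptides at the membrane into substrates for these carriers, 6 rose (60%) and none fell. Their median log2 difference was 0.71. Over all genes taken by 1 probe set each, 6.42% were higher and 7.55% lower. Anpep, an aminopeptidase, had 93.1, 250.5 and 300.6 on NHE3+/+ arrays and 1802, 1945 and 1913 on NHE3-/- arrays. Enpep, which removes acidic residues, rose by 1.77 (SE 0.23), Naaladl1 by 1.34 (SE 0.21), Ace by 0.94 (SE 0.25), Mep1b by 0.58 (SE 0.10) and Dpp4 by 0.49 (SE 0.12). The peptidases Mme, Mep1a, Xpnpep2 and Dpep1 did not pass. Of 7 tested partners and related carriers, Slc9a3 among them, none rose and 1 fell (14.3%), the mitochondrial ornithine carrier Slc25a15 (-0.48, SE 0.13). All NHE3-/- arrays lay above all NHE3+/+ arrays for 2 of the 7 (28.6%; 12.2% of all tested probe sets), and below for Slc25a15. The 2 were Slc9a3r1 (0.38, SE 0.12; limma adjusted p = 0.0681) and Slc25a12 (0.46, SE 0.15; adjusted p = 0.068), and neither passed. The basolateral aromatic amino acid carrier Slc16a10 had 0.13 (SE 0.25), and the transporter chaperone Cltrn was below the filter.

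Enzymes of amino acid use split, with 4 of 16 tested genes higher (25%) and 5 lower (31.2%), against 6.42% and 7.55% of all genes. Their median log2 difference was 0.02. Arginase 2 (Arg2) rose by 2.15 (SE 0.17), the aspartate aminotransferase Got1 by 1.42 (SE 0.13), proline dehydrogenase (Prodh) by 1.40 (SE 0.27) and the alanine aminotransferase Gpt by 1.28 (SE 0.15). Glutamine synthetase (Glul) fell by 0.93 (SE 0.13), ornithine aminotransferase (Oat) by 0.92 (SE 0.11), ornithine decarboxylase (Odc1) by 0.60 (SE 0.11), Bcat2 by 0.56 (SE 0.16) and Glud1 by 0.40 (SE 0.12), all on the log2 scale.

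Genes of the ATF4 programme, which answers amino acid shortage and induces several of the transporters, were also read. Of 13 tested, 1 rose (7.69%) and 2 fell (15.4%), with a median log2 difference of -0.32, against 6.42% and 7.55% of all genes. All NHE3-/- arrays lay below all NHE3+/+ arrays for 7 of the 13 (53.8%), against 20.1% of all tested probe sets. Ddit4 rose by 0.94 (SE 0.11), and Aldh18a1 (proline synthesis) and Nupr1 fell by 1.38 (SE 0.13) and 1.27 (SE 0.18). Asns, asparagine synthetase, had signals of 2490, 1746 and 1940 on NHE3+/+ arrays and 1358, 1810 and 1318 on NHE3-/- arrays. These overlapped, and its log2 difference of -0.45 (SE 0.16) did not pass (limma adjusted p = 0.098). Atf4 itself had -0.31 (SE 0.11), Chac1 -0.67 (SE 0.22), Ddit3 -0.45 (SE 0.17) and Psat1 -0.49 (SE 0.18), and none of these passed.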

How the data were processed

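Total RNA from 6 colon samples was labelled with biotin and read on Affymetrix MOE430 2.0 arrays, per the labels' protocols. The authors deposited 1 linear intensity per probe set and array, and the submitters' processing notes name GCOS without a version. Every array has a trimmed mean of 500 (2% cut at either end), the mark of global scaling to that target. Detection calls are not given in the sources used here. Precision is limited by having 3 arrays a group.

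Signals were turned into log2(signal + 31.4), 31.4 being the 25th percentile of all values. Of 45101 probe sets, 64 controls were dropped, as was the dimmest 40% by mean log2 value, which left 27024 for limma 3.58.1 in R 4.3.3 (mean-variance trend, genotype only, two-sided, Benjamini-Hochberg adjustment over all tested, threshold 0.05). The fit was tested on simulated data. Gene names came from the platform annotation (932 probe sets with several genes, 1 of them with a member, and 9211 with none were not used), and all 68 member gene IDs matched RefSeq. All members are named, those called or with a side in full. Sides follow common descriptions of epithelia. Genes of the lists that no single-gene probe set names were not analysed here. The members, lists and tests were chosen with earlier results of these data known. Alternatives were scaling, pseudocount, filter, variance model, choice of probe set, left-out arrays, Xist as a covariate and a replicate block.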

Additional observations from a re-analysis of the deposited data

How the results depend on the processing

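Of the 11 called transporter genes, 6 (Slc7a9, Slc6a19, Slc36a1, Slc6a4, Slc6a8 and Slc15a1) were called under each of the 18 alternatives that gave them a test and kept their direction in the median over probe sets, which has no test. Slc7a9 ran from 3.61 to 4.14 and Slc6a19 from 2.80 to 3.53 (log2 differences). Slc15a2 turned to -0.016 as the median over its tested probe sets. The counts of members were 6 to 8 higher and 2 to 6 lower. Without the mean-variance trend, 2 transporter genes and 0 basolateral ones were lower, and 511 of all probe sets were higher and 558 lower. Slc7a1 (adjusted p = 0.0641), Slc7a6 (0.0637), Slc1a4 (0.0508) and Slc15a2 (0.0712) lost their calls there, and the 2 lower genes were Slc36a4 and Slc43a1 (-0.67, adjusted p = 0.048), the latter gained. Only 1 basolateral gene was lower with log2 medians set equal, with signal medians set equal (an alternative chosen after seeing the data), with quantile normalization, with no filter, with NHE3-/- array 3 alone, with the replicate block and in each fit that left out 1 array (range 1 to 1), because Slc7a6 was not called. Of all probe sets, 839 were lower with log2 medians and 739 with signal medians set equal, and 767 were higher with NHE3-/- array 3 alone. Leaving out 1 array gave 839 (without NHE3-/- array 3) to 1211 higher, and 775 to 1385 lower, with 843 without NHE3+/+ array 2, 775 without NHE3+/+ array 3, 1011 without NHE3-/- array 1 and 832 without NHE3-/- array 3. The cause of these shifts was not tested.

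The arrays share only replicate numbers: deviations of same-numbered arrays correlated at 0.03, -0.04 and 0.003, and 1 of 6 arrays correlated best with its own number. With the replicate block, 1156 of all probe sets were higher and 1384 lower, and among members 8 were higher (Slc3a1 added, adjusted p = 0.0434) and 3 lower. Genes whose signal is near the array median are limited by background, and no detection calls were used.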
